A study of Mus musculus with 8 samples.

Results

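Retinol saturase (Retsat) and other genes of retinoid handling were followed across the livers of 8 Ames dwarf females. The named genes were Retsat, Rbp2, Rbp4, Ttr and Lrat. A gene entered through the probe sets that the platform annotation assigns to its symbol alone, and the brightest over the 8 arrays was chosen by the rule where there were several. Each measured member had 1 probe set, so brightness decided nothing among them. That gave 4 of the 5 genes a probe set, out of 8251 genes with one in the whole table, and 3 of the 4 were bright enough to test. Lrat had none and was skipped.

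All 8 mice carried the df/df genotype, a pituitary mutation that leaves the animals without growth hormone, prolactin and thyrotropin. Each received 30% less of a standard pelleted diet than df/df females with free access to food ate, had free access to water, and was killed at 24 to 26 months of age. Total liver RNA of each mouse went onto 1 Affymetrix U74Av2 array, on which short oligonucleotide probes read each transcript. The mice form 1 group, so there is no contrast of diet or genotype and every comparison here is between individual mice. The livers were whole tissue, in which fewer cells of a type and less RNA per cell cannot be told apart.

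The liver takes up dietary vitamin A, stores it as retinyl esters in stellate cells and returns retinol to the blood. Hepatocytes release retinol bound to retinol-binding protein (Rbp4), which circulates in a complex with transthyretin (Ttr), and lecithin retinol acyltransferase (Lrat) makes the stored esters. Rbp2 is the cellular retinol-binding protein of the small intestine. Retsat is an oxidoreductase of the endoplasmic reticulum that saturates a double bond of all-trans-retinol, and it is a known target of peroxisome proliferator-activated receptors (PPARs). Rbp4 and Ttr are classed as negative acute phase proteins, which the liver makes in smaller amounts during inflammation.

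The RefSeq promoter windows of 3 of these genes (250 bases before to 50 bases after a transcription start, build GRCm38.p6) are shown because Retsat varied with PPAR alpha targets and interferon response genes in these livers, while Rbp4 varied little and Rbp2 was not above the floor. Capitals mark matches, on either strand, to the nuclear receptor half-site AGGTCA, the interferon gamma activated site TTCNNNGAA, the interferon-stimulated response element core GAAANNGAAA and the TATA box TATAAA.
Retsat, chr6:72598352-72598651, plus strand: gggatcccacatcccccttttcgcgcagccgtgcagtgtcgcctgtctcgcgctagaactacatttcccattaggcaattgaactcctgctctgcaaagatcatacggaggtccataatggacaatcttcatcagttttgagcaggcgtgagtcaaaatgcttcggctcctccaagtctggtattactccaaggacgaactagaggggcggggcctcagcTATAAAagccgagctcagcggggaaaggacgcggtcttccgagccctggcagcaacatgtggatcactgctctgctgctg
Rbp4, chr19:38124762-38125061, minus strand: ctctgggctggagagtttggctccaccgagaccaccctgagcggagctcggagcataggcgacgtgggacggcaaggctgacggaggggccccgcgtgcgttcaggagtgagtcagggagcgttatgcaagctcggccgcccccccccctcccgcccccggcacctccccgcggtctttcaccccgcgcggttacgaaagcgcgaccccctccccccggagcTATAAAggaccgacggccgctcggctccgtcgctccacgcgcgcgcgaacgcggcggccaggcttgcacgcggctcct
Rbp2, chr9:98490287-98490586, plus strand: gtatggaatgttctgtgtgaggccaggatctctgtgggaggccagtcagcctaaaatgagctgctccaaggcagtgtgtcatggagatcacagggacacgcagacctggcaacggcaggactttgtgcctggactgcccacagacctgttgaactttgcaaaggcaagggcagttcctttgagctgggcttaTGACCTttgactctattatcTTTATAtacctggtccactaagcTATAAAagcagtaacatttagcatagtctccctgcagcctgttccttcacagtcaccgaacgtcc

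The Retsat window held 1 match, a TATA box whose first base lies at -30 from the start. The Rbp4 window shown, 1 of 2 listed for that gene, also held a TATA box, with its first base at -28, and the other window held none of the motifs searched. The Rbp2 window held AGGTCA on the opposite strand at -58 and TATA boxes at -15 and, on the opposite strand, at -38. Over all 32851 windows, 16.3% held AGGTCA, 8.30% TTCNNNGAA, 3.44% GAAANNGAAA and 13.6% TATAAA on either strand. The direct repeat AGGTCANAGGTCA, which overlaps the half-site and is the arrangement that PPARs bind, was in 13 windows and in none of the 3 shown. A match is a run of letters and was not tested as a binding site, and the absence of one says only that the letters are not in this window.

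Before log2, deposited intensities below 37.2 (the 25th percentile of all values) were set to that floor, and genes with a mean of at least 165.2 (the median of all values) were tested. Arrays correlated with each other at r from 0.881 to 0.977. The hybridization control CreX (3' probe set) read 15554 to 17571 on the arrays of mice 1 to 4 and 11361 to 12179 on those of mice 5 to 8, so the arrays fall into 2 sets of 4, each too small for a correlation of its own. The ratio of the 5' to the 3' Gapdh control was 0.375 in mouse 5 and 0.937 to 1.26 in the others. For the actin control that ratio was 0.627 in mouse 5 and 0.500 to 0.690 in the others. Between 11 and 19 probe sets exceeded 20000 in mice 6, 7 and 8, against 26 to 41 in mice 1 to 5.

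Retsat differed severalfold between the livers. Its intensity was 3069, 3053, 2087, 3842, 3719, 1001, 4253 and 1396 in mice 1 to 8, a mean of 2803 ± 1189 (SD, n = 8). Mice 6 and 8 were low, mouse 3 lay between them and the rest, and mice 4, 5 and 7 were high. The highest value was 4.25 times the lowest. In rising order the mice ran 6, 8, 3, 2, 1, 5, 4 and 7. The steps between mice 6 and 8, 8 and 3, and 3 and 2 were 0.48, 0.58 and 0.55 on the log2 scale, and that between mice 1 and 5 was 0.28. Each was above 0.20, the log2 SD between mice that a trend fitted over the tested probe sets gives at that brightness. That SD is for single mice, and a difference between mice varies more, so these steps are descriptions. Mice 2 and 1 differed by 0.0074, mice 5 and 4 by 0.047 and mice 4 and 7 by 0.15, all within that SD.

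**Figure D1:**
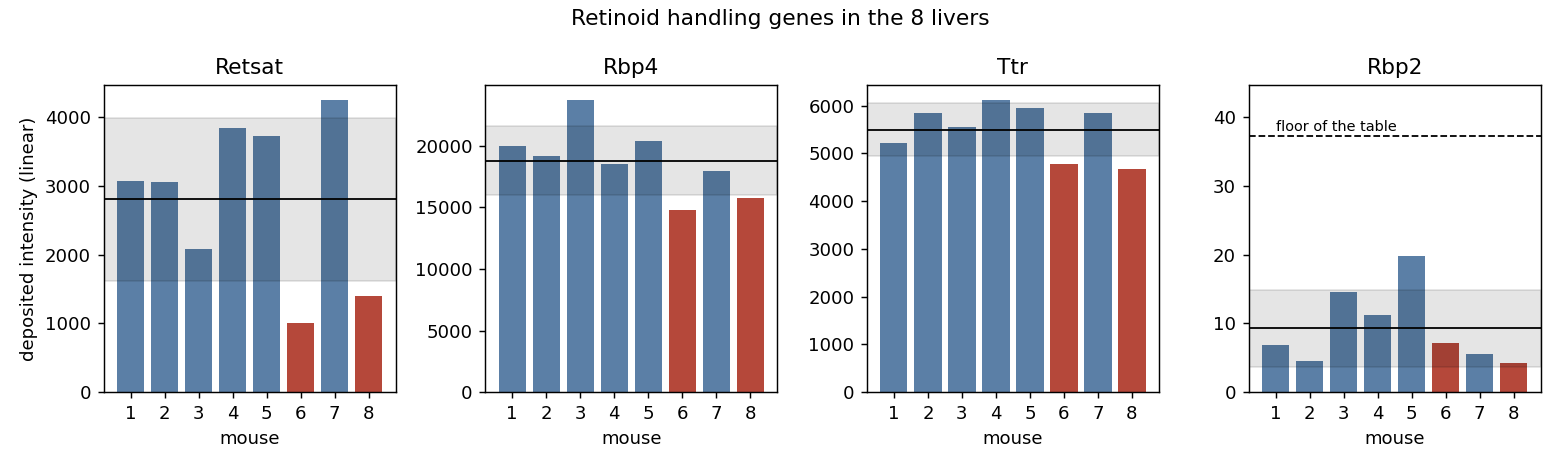
Deposited intensity (linear axis from 0) of Retsat, Rbp4, Ttr and Rbp2 in mice 1 to 8, 1 array per mouse, with red bars for mice 6 and 8, a line for the mean and a grey band for 1 SD on each side. Retsat runs from 1001 to 4253, Rbp4 from 14835 to 23760, Ttr from 4683 to 6127, and every Rbp2 bar is below the dashed floor of 37.2.

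Rbp4, the plasma carrier of retinol, differed far less. It read 19986, 19181, 23760, 18544, 20399, 14835, 17953 and 15796 in mice 1 to 8, a mean of 18807 ± 2784 (SD, n = 8), with 1.6 as the ratio of the highest to the lowest. Mice 6 and 8 were again lowest, but mouse 3, next after them for Retsat, was highest. Only the step from mouse 5 up to mouse 3 (0.22) exceeded the SD of 0.21 at that brightness. With quantile normalization the log2 SD of Rbp4 fell from 0.21 to 0.11, and mice 6 and 8 were no longer its lowest pair.

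Ttr, which carries thyroxine as well as the Rbp4 complex, had the smallest spread of the 3 tested members in the deposited values. With quantile normalization its log2 SD (0.12) was above that of Rbp4 (0.11). Its intensity was 5217, 5852, 5551, 6127, 5944, 4773, 5841 and 4683 in mice 1 to 8, a mean of 5499 ± 549 (SD, n = 8), with a highest to lowest ratio of 1.31. Mice 8 and 6 were lowest, and no step between neighbouring mice reached the SD of 0.21 for that brightness. The largest step was 0.13, between mice 6 and 1. Without mice 6 and 8 the log2 SD of Ttr was 0.083 in place of 0.15.

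Rbp2 was not detected above the floor in any liver. It read between 4.2 and 19.8 with a median of 7.05, and all 8 values lay under the floor of 37.2, so its order between mice was not read. Lrat, the stellate cell enzyme of ester storage, was not measured.

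The spread of each gene between mice was tested against the spread expected at its brightness (limma's moderated variance, one-sided F test, Benjamini-Hochberg adjustment over all probe sets). Of the 3 tested members 0 passed, against 0% of all 6265 probe sets, of which 400 had an unadjusted p under 0.05 in this F test. On simulated data with variances as dispersed as here, the test missed every widely varying probe set planted in them, so the count of 0 says nothing on whether genes varied. The log2 SD of Retsat was 0.75, with an F ratio of 13.7 (limma F test, unadjusted p = 0.0138, adjusted p = 0.576), a spread above that of 95.6% of the genes tested. It was 0.37 without mice 6 and 8. Rbp4 (log2 SD 0.21, F = 1.08, limma adjusted p = 0.989) was above 42.3% of genes and Ttr (0.15, F = 0.519, limma adjusted p = 0.989) above 15.1%. At an unadjusted p under 0.05, 1 of the 3 passed, where 5.65% of genes did.

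**Figure D2:**
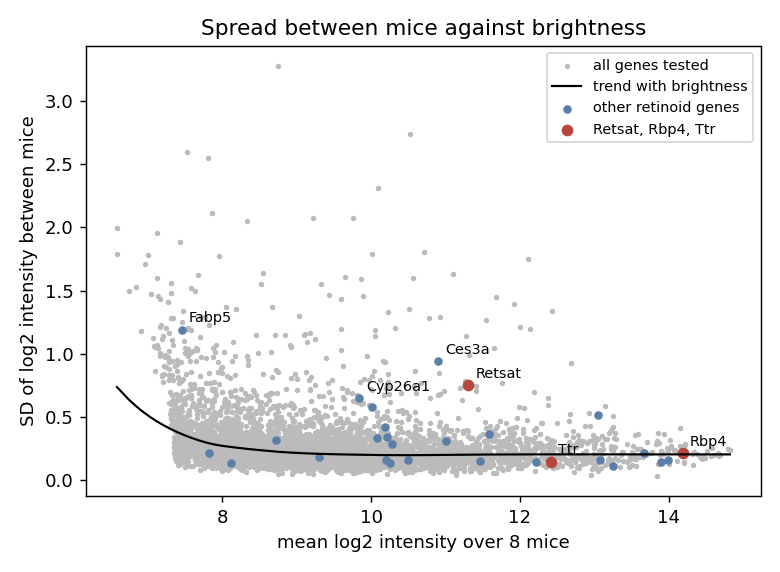
SD of log2 intensity between the 8 mice (vertical axis) against mean log2 intensity (horizontal axis) for the 4869 genes tested, with the trend as a line, other retinoid genes in blue and Retsat, Rbp4 and Ttr in red. Retsat lies well above the line at an SD of 0.75, Rbp4 lies on it and Ttr below it.

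Whether the members followed each other was asked over the 8 mice (3 pairs, exact two-sided permutation test over 40320 pairings, Benjamini-Hochberg adjusted over the pairs). The genes were named with earlier results of these data known, so these p-values, and those for the lists below, are not independent evidence. Retsat and Ttr correlated at r = 0.886 (exact p = 0.00702, adjusted 0.0211) and rho = 0.738 (exact p = 0.0458, adjusted 0.138), and lay on the same side of their means in 6 of 8 mice. Without mice 6 and 8, the farthest from the Retsat median, r was 0.543, so the relation rests on those mice. It also ended with quantile normalization (r = 0.794, adjusted exact p = 0.0627). Retsat and Rbp4 gave r = 0.544 and rho = 0.262 (exact p = 0.164 and 0.536, adjusted 0.164 and 0.536). That r turned to -0.897 when mice 6 and 8 were left out. Rbp4 and Ttr gave r = 0.596 and rho = 0.429 (exact p = 0.120 and 0.299, adjusted 0.164 and 0.449), and r = 0.619 without mice 6 and 3.

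Retsat ran with the targets of PPAR alpha, the receptor that drives hepatic fatty acid oxidation. The score of a list is the mean, over its tested genes, of log2 intensity minus each gene's own mean. The 16 tested PPAR alpha targets scored 0.085, 0.066, -0.065, 0.31, 0.33, -0.59, 0.34 and -0.47 in mice 1 to 8. Retsat and this score correlated at r = 0.988 (exact permutation p = 0.000124, adjusted p = 0.000744 over 12 member and list combinations) and rho = 0.976 (exact p = 0.000397, adjusted p = 0.00238), with all 8 mice on the same side of both means. The r was 0.947 without mice 6 and 8, and 0.987 with the means of the 2 array sets removed (adjusted exact p = 0.0208). Of the 16 targets 15 correlated positively with Retsat, at a median r of 0.78 against 0.071 for all 4868 other genes tested. Cyp4a14, a fatty acid omega-hydroxylase, read 761 in mouse 6 and 8973 in mouse 7, with r = 0.983 to Retsat. Acot1, an acyl-CoA thioesterase, read 79 in mouse 6 and 455.9 in mouse 7, with r = 0.975. The lipid droplet gene Plin2 was the exception, at r = -0.186, with 3628 in mouse 6, its highest value.

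Retsat ran opposite to the interferon response genes. Their score over 17 tested genes was -0.17, -0.00090, 0.90, -1.47, -1.47, 2.15, -1.64 and 1.70 in mice 1 to 8. Retsat and this score correlated at r = -0.966 (exact permutation p = 4.96e-05, adjusted p = 0.000595) and rho = -0.976 (exact p = 0.000397, adjusted p = 0.00238), with all 8 mice on opposite sides of the 2 means. Without mice 6 and 8 the r was -0.964, and with the array set means removed -0.982 (adjusted exact p = 0.0313). All 17 genes correlated negatively with Retsat, from r = -0.841 for Iigp1 to -0.969 for Tap1, the peptide transporter of class I antigen presentation. Cxcl10 (624 and 517.5 in mice 6 and 8) and Ifit3 (626.7 and 384) passed the brightness filter only through those mice. Without those mice the mean of each gene lies under the filter, so how they entered favoured a negative r. With the 75th percentile as filter, which left 15 of the genes, the score had r = -0.963 to Retsat.

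Genes of the acute phase, most of whose products the inflamed liver secretes, gave a similar picture with exceptions. Their score ran from -0.62 in mouse 7 to 0.62 in mouse 8, and Retsat correlated with it at r = -0.916 (exact permutation p = 0.000322, adjusted p = 0.00129) and rho = -0.929 (exact p = 0.00223, adjusted p = 0.00893). The r was -0.901 without mice 6 and 8 and -0.943 with the array set means removed (adjusted exact p = 0.0469). Of the 20 genes 16 correlated negatively with Retsat. Orm1, an orosomucoid, read 4329 in mouse 7 and 10840 in mouse 8, at r = -0.965 to Retsat. The 4 positive genes were hepcidin (Hamp, r = 0.958), the metallothioneins Mt1 (0.554) and Mt2 (0.426), and the fibrinogen gene Fga (0.077). The 3 scores were themselves tied over the mice, with r = -0.975 between PPAR alpha targets and interferon response (exact permutation p = 2.48e-05, adjusted 0.000149 over 6 pairs of scores; rho = -1, exact p = 4.96e-05; r = -0.997 without the 2 farthest mice), so the relation of Retsat to one list cannot be told apart from its relation to the others.

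Ttr followed the same lists within a much narrower range. It correlated at r = 0.920 with PPAR alpha targets, -0.876 with interferon response and -0.903 with acute phase proteins (exact permutation p = 0.00367, 0.00665 and 0.00248, adjusted p = 0.00881, 0.0133 and 0.00744). The rank correlations were 0.714, -0.714 and -0.810 (exact p = 0.0576, 0.0576 and 0.0218, adjusted p = 0.0987, 0.0987 and 0.0653). Without mice 8 and 6 the r values were 0.642, -0.622 and -0.762, and none of the 3 calls held there, with quantile normalization or with the array set means removed. Rbp4 passed with none of the 4 lists. Its r was 0.592 with PPAR alpha targets, -0.409 with interferon response and -0.322 with acute phase proteins (exact permutation p = 0.123, 0.321 and 0.433, adjusted p = 0.164, 0.385 and 0.433), with rho of 0.333, -0.333 and -0.286 (exact p = 0.428, 0.428 and 0.501, adjusted p = 0.513, 0.513 and 0.546) and r of 0.725, -0.614 and -0.549 without mice 6 and 3. Leaving out mouse 3 gave 0.858, -0.789 and -0.711, and leaving out mouse 6 gave 0.307, -0.071 and -0.037. With mice 6 and 8 both left out, each of the 3 r values changed sign, to -0.722, 0.765 and 0.803.

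**Figure D3:**
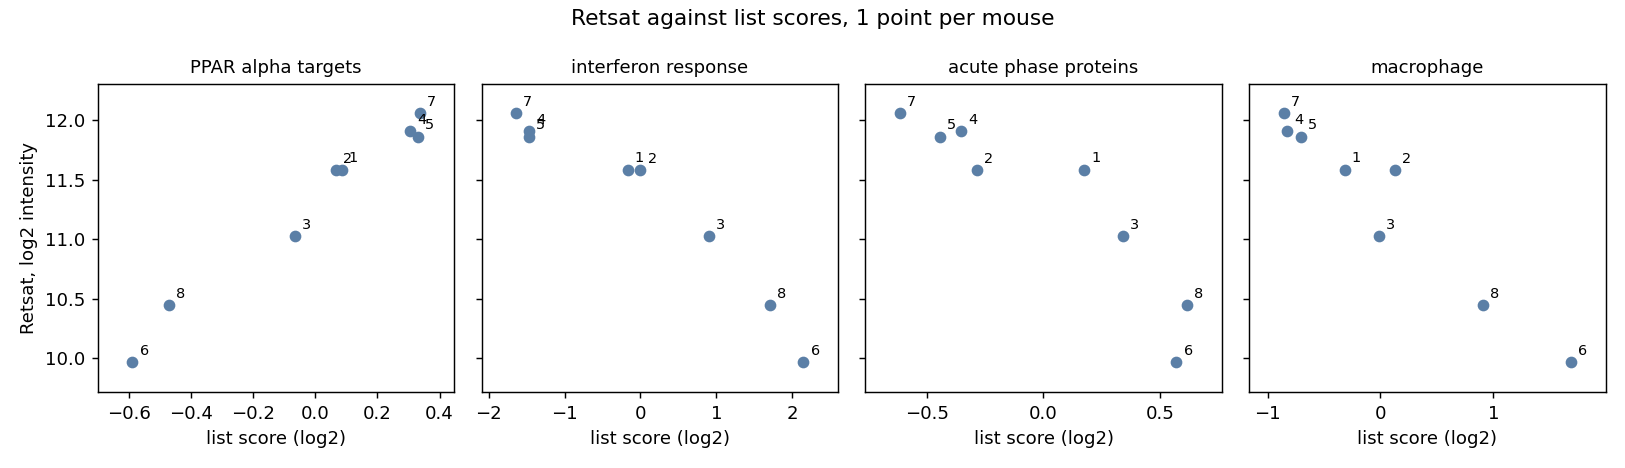
Log2 intensity of Retsat (vertical axis) against the log2 score of 4 gene lists (horizontal axes), 1 numbered point per mouse. Retsat rises with the PPAR alpha target score (r = 0.988) and falls with the interferon response (r = -0.966) and acute phase (r = -0.916) scores, and the mice lowest for Retsat, 6 and 8, have the highest macrophage scores.

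Macrophage markers were highest in the mice where Retsat was lowest. Of 14 listed markers 11 had a probe set and 10 were tested. Summed, they gave 32335 for mouse 6, 20182 for mouse 8 and 5385 to 11353 for the remaining 6 mice. The scores of mice 6 and 8 were 1.69 and 0.91, and those of the rest lay between -0.86 and 0.13. Clec4f, which marks resident Kupffer cells, had another order, from 524 in mouse 1 to 1362 in mouse 2, with 1221 in mouse 6 and 747 in mouse 8. Marco, a scavenger receptor of macrophages, was under the floor in 5 mice and read 172 and 176 in mice 6 and 8. The 9 tested hepatocyte markers, of 10 listed, summed to between 118524 in mouse 6 and 166311 in mouse 3, with scores from -0.20 to 0.25. The macrophage score correlated at r = -0.977 with that of PPAR alpha targets and 0.947 with that of interferon response (exact permutation p = 0.000372 and 0.000347, adjusted 0.000625 for both over the 6 pairs; rho = -0.952 and 0.952, exact p = 0.00114 for both; r = -0.920 and 0.918 without the 2 farthest mice). Markers of T and NK cells, 3 tested of 7 with a probe set, scored 1.74, 1.80 and 1.07 in mice 6, 8 and 3 and between -1.52 and -1.35 in mice 4, 5 and 7. Their sums ran from 215 in mouse 4 to 2954 in mouse 6. Of the 3, the chemokine Ccl5 spanned 15.1 (mouse 7) to 2069 (mouse 6) and Ltb 48.9 (mouse 5) to 824 (mouse 8). Cd4 had another order, highest in mouse 3 (345), with 235 and 259 in mice 6 and 8, below mice 1, 2 and 5 (283 to 315). The defining Cd3d and Cd8a were under the floor in all 8 mice. Cd3e, too dim to test, was highest in mouse 1 (113) and read 54.1 in mouse 6 and 78.3 in mouse 8. The erythrocyte score, over 2 tested genes of 3 with a probe set, was lowest in mice 6 and 8 (-0.45 and -0.34). The 2 genes differed in order. Alas2 was lowest in mouse 6 (810) and read 1256 in mouse 8, and Hba-a1 rose from mouse 8 (4393) through mouse 1 (5379) to mouse 6 (5819). Sums ran from 5649 (mouse 8) to 12740 (mouse 5), with mouse 1 (6524) under mouse 6 (6629). The part of any of these cells in the order of Retsat was not tested.

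Stellate cells, which store the retinyl esters, were represented by 7 tested genes, 14 of the 19 listed having a probe set. Lrat had none, and 1 of the 14 was under the floor in every mouse. Their score ran from -0.25 in mouse 5 to 0.36 in mouse 6. Retsat correlated with it at r = -0.777 (exact permutation p = 0.0175, adjusted p = 0.0301) and rho = -0.762 (exact p = 0.0368, adjusted p = 0.0882), with r = -0.760 without mice 6 and 8. That call ended with both other scalings, without a filter on low values, without mice 6 and 8 together, and without mouse 2, 4, 6 or 7 alone, where r lay between -0.781 and -0.481. With the 75th percentile as filter, which left 3 of the 7 genes, r turned to 0.512. With the tested probe sets of each gene averaged, in place of the brightest, it was -0.846 (adjusted exact permutation p = 0.0102). The members differed among themselves: the collagen genes Col1a1 (314 in mouse 5, 969 in mouse 6) and Col3a1 had r of -0.940 and -0.877 to Retsat, while Reln had 0.483 and Col1a2 0.293. These values are from the brightest probe set, of 2 for Col1a1, Reln and Col1a2 and of 3 for Col3a1. Ttr gave r = -0.627 and rho = -0.595 (exact permutation p = 0.0891 and 0.132, adjusted p = 0.134 and 0.198; r = -0.624 without mice 8 and 6), and Rbp4 gave r = -0.361 and rho = -0.095 (exact p = 0.375 and 0.840, adjusted p = 0.409 and 0.840; r = -0.258 without mice 6 and 3).

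The wider retinoid pathway was read from lists of 63 other symbols, a few of them second names of a listed gene. Of these, 37 had a probe set and 25 were bright enough to test. In the limma F test 0 of the 25 had an adjusted p under 0.05 and 4 had an unadjusted p under 0.05 (Fabp5, Ces3a, Rdh16 and Cyp26a1), where 5.65% of all genes did. The highest mouse was at least 2-fold above the lowest for 8 of the 25, against 23.4% of all genes. The median log2 SD was 0.22 for the 25 and 0.23 for all 4869 genes.

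Among binding proteins, Fabp5, a fatty acid binding protein that can also carry retinoic acid, had its lowest value, 42.7, in mouse 4 and its highest, 374, in mouse 6, for a median of 245 and a log2 SD of 1.19. The retinol uptake receptor Stra6 and the retinoic acid binding proteins Crabp1 and Crabp2 were under the floor in all 8 mice.

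Among esterases and lipases, the carboxylesterase Ces1d was low in mice 6 and 8 (4303 and 5408) and 8858 to 11717 elsewhere, with r = 0.959 to Retsat. Its probe set belongs to a family and may read related carboxylesterases. Ces3a, another carboxylesterase, had its own order, from 572 (mouse 6) and 977 (mouse 5) up to 3745 (mouse 3), and r = 0.183 to Retsat. Lpl, lipoprotein lipase, was highest in mouse 6 (1889) and lowest in mouse 2 (785.7), and its second probe set had a different order, with 125 in mouse 6 and 432 in mouse 4.

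Among the dehydrogenases and reductases that act on retinol and retinal, 12 were tested and 2 ranged 2-fold or more. Dhrs4, a peroxisomal NADPH-dependent retinal reductase, read 2186, 2238, 1773, 2457, 2335, 1410, 2636 and 1667 in mice 1 to 8. It was lowest in mouse 6, next in mouse 8 and then mouse 3, and highest in mouse 7, as Retsat was, and its ratio of highest to lowest was 1.87. Rdh16, a retinol and hydroxysteroid dehydrogenase, was likewise low in mice 6 and 8 (531 and 559.9) and 1100 to 1462 elsewhere, a ratio of 2.75, with r = 0.952 to Retsat. Aldh1a7, a close relative of the retinal dehydrogenase Aldh1a1 and uncertain for that reason, ranged from 2166 in mouse 5 to 4361 in mouse 8, at r = -0.244. Aldh1a1 itself, which oxidizes retinal to retinoic acid, read 13488 in mouse 6 and 18436 in mouse 2.

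Cyp26a1, which hydroxylates retinoic acid and is itself induced by it, had a range nearly as wide as that of Retsat in another order. It read 1410, 863, 998, 869.6, 852, 1137, 340 and 1419 in mice 1 to 8, a mean of 986 ± 349 (SD, n = 8) and a ratio of 4.17. Mouse 7, highest for Retsat, was lowest for Cyp26a1 and stood apart from the other 7, and mouse 8, low for Retsat, was highest. The r between the genes was -0.587.

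Receptors and other targets varied less. Rxra, the partner of both retinoic acid receptors and PPAR alpha, ranged from 735 in mouse 6 to 1368 in mouse 2, and Rxrb from 737 in mouse 8 to 1637 in mouse 1. Rara and Rarg, receptors for retinoic acid, averaged 48.8 ± 38.7 and 38.1 ± 7.45 (SD, n = 8) and were too dim to test. Tgm2, a transglutaminase induced by retinoic acid, ranged from 229 to 315 and Rarres2 (chemerin) from 11089 to 16348. Scarb1, which takes up carotenoids and lipoprotein lipids, ranged from 4112 to 5690.

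Mice 6 and 8 were the lowest pair for 3 of 3 tested members and for 8 of the 25 other retinoid genes, where 13% of all genes tested had that order. The 8 were Ces1d, Ces1g, Rdh16, Dhrs3, Dhrs4, Adh1, Adh4 and Adh5, each by its brightest probe set. The second probe set of Adh4, nearly as bright, had another order, with 1001.5 in mouse 6 but mouse 8 (1191) above mouse 4 (1104). Those of Ces1d (4233 and 4867 in mice 6 and 8) and Adh5 (4167 and 4170) kept the pair lowest. With quantile normalization the counts were 2 of 3 (Retsat and Ttr) and 5 of 25 (Ces1d, Rdh16, Dhrs3, Dhrs4 and Adh4), against 14.9% of genes, and with arrays scaled to a common median 3 of 3 and 12 of 25, against 21.1%. The pair was noticed in the values of Retsat, so these counts are descriptions. Ces1g and 2 alcohol dehydrogenases dropped out under quantile normalization, the bright Adh1 (13578 in mouse 6 and 17540 in mouse 2) and Adh5 (8706 in mouse 8 and 10896 in mouse 5).

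**Figure D4:**
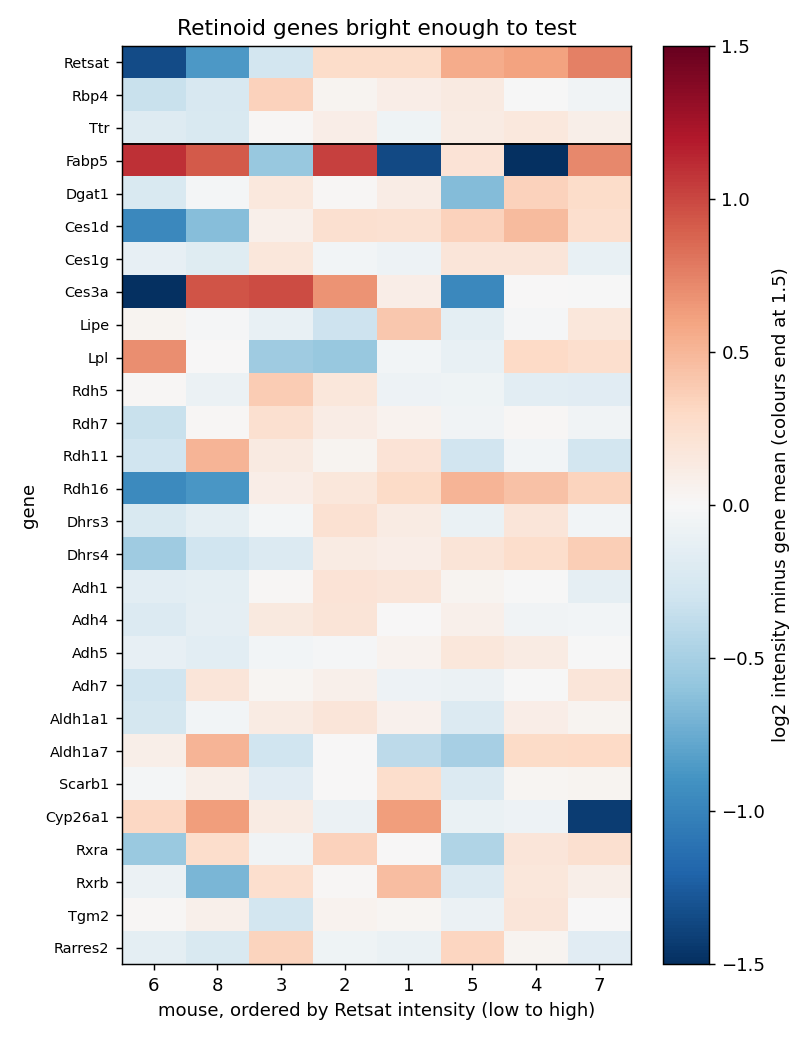
Log2 intensity minus the gene's mean (colour, red high and blue low, ending at 1.5) for the 3 tested members above the line and 25 other retinoid genes below it, with mice in columns in rising order of Retsat. Ces1d, Rdh16 and Dhrs4 run from blue to red like Retsat, while Fabp5, Ces3a and Cyp26a1 have orders of their own.

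Over all genes tested, likeness of pattern was measured by Pearson's r of log2 intensity over the 8 mice, as a description. The genes most like Retsat were Dhrs4 (r = 0.987), Rmnd5a, a subunit of a ubiquitin ligase complex (0.986), and Cyp4a14 (0.983), and the least like it was Cd48, a surface protein of leukocytes (-0.996, with 56.2 in mouse 7 and 467 in mouse 6). There were 98 genes at r of 0.9 or above with Retsat and 172 at -0.9 or below. The genes most like Ttr were Mrpl24, a mitochondrial ribosomal protein (0.994), Cops6, a subunit of the COP9 signalosome (0.976), and Cmbl, a hydrolase (0.952), and the least like it was Cd7 (-0.975). For Rbp4 they were Tmem183a (0.978) and the antitrypsin genes Serpina1e (0.969) and Serpina1b (0.957), whose probe sets share probes within their family, and Cdc42 was least like it (-0.951). Cd7, least like Ttr, read 278.5 and 282 in mice 6 and 8, and without them its mean also lies under the filter.

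Of the negative acute phase proteins other than Rbp4 and Ttr, 6 were tested, with a median log2 SD of 0.23, and 0 of them ranged 2-fold or more. Igf1, insulin-like growth factor 1, ranged from 847 in mouse 5 to 1661 in mouse 2, Apoa1, the main protein of high density lipoprotein, from 19388 in mouse 7 to 31438 in mouse 3, and F12, coagulation factor XII, from 2412 in mouse 2 to 3772 in mouse 3. The second probe set of Igf1 had a different order, from 375 in mouse 7 to 815 in mouse 3, with 441 in mouse 2. Mice 6 and 8 were not the lowest pair for Igf1, Apoa1 or F12. They were for the other 3, Alb (albumin, 23417 and 24665 in mice 6 and 8), Serpina6 (the corticosteroid carrier, 16295 and 17384) and Ahsg (fetuin-A, 18477 and 19532). The dimmer second probe set of Serpina6 had mouse 8 (1558) above mice 7 (1351) and 5 (1439), with mouse 6 lowest (1085). These are deposited values of bright genes, and their order under the other scalings was not examined.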

How the data were processed

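Total RNA of 8 livers was read on Affymetrix U74Av2 arrays, scanned on a Hewlett-Packard GeneArray scanner, per the labels. As deposited by the authors, the values are intensities on a linear scale, 1 for each array and each of 12488 probe sets. Means without the outer 2% of probe sets differed by 0.0140% between arrays, so no further scaling was applied. How probes were summarized: not given in the sources used. In the platform annotation 10833 probe sets had 1 symbol, 396 had several and 1259 were without one. The brightest probe set stood for a gene. Promoters came from RefSeq and matched 4 of the 5 genes. 

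Spread was tested by the F ratio of each variance to a trend from limma 3.58.1 (R 4.3.3, squeezeVar with robust trend, prior degrees of freedom 3.80). Correlations were tested by exact permutation (numpy 2.4.6). The spread test was tested on simulated data: it found planted probe sets where variances lay on the trend and none where they were as dispersed as here. The members and lists were chosen with earlier results of these data known. Named genes were the members, up to 3 tested genes with the widest range per retinoid list, and the genes most and least like each member. Stra6, Crabp1, Crabp2, Rara, Rarg, Aldh1a1 and the genes named for their lowest mice or from other lists were added after their values were seen. Alternatives changed the floor, the pseudocount, the scaling, the filter, the probe sets and the mice. The array sets as a block and leaving out mice 6 and 8 together were added after seeing the data.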

Additional observations from a re-analysis of the deposited data

Results flagged for a closer look

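Cyp26a1 read 340 in mouse 7 and 852 to 1419 in the other 7 mice. The gap to the next mouse was 0.643 of the range on the log2 scale, above Dixon's 95% critical value for 8 values. Of 38 genes and scores examined in this way 1 exceeded it, and chance gives about 1 in 20.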

How the results depend on the processing

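The spread test called 0 probe sets under every alternative run (unadjusted p under 0.05 for 400 as deposited), which shows no stability, since it missed planted probe sets in simulated data, and the correlations of Retsat with PPAR alpha targets, interferon response and acute phase proteins kept their sign and stayed past the threshold under all 18 alternatives run for each (r of 0.947 to 0.990, -0.982 to -0.957 and -0.958 to -0.892). Array medians ran from 146 in mouse 5 to 177.0 in mouse 8. With a common median for the arrays, Rbp4 and Ttr passed (r = 0.767, adjusted exact p = 0.0401), and Retsat with the stellate cell score did not (-0.564). With quantile normalization the calls of Retsat with Ttr (0.794), Ttr with PPAR alpha targets (0.785), interferon response (-0.743) and acute phase proteins (-0.834), and Retsat with the stellate cell score (-0.721) ended. Without a filter the last was -0.506. With the 75th percentile as filter, which left 3 stellate cell genes, that score turned to 0.512 with Retsat, 0.710 with Rbp4 and 0.470 with Ttr. With the array sets as a block, which allows fewer pairings, Retsat with Ttr (0.873) and Ttr with PPAR alpha targets (0.914), interferon response (-0.90) and acute phase proteins (-0.949) no longer passed. Without mice 6 and 8 the sign turned for Rbp4 with Retsat (-0.897), Ttr (-0.444), PPAR alpha targets (-0.722), interferon response (0.765), acute phase proteins (0.803) and stellate cell genes (0.474), and Retsat with Ttr (0.543) and stellate cell genes (-0.760), and Ttr with PPAR alpha targets (0.642), interferon response (-0.622) and acute phase proteins (-0.762), fell short. The cause was not tested. Leaving out 1 mouse gave Retsat with Ttr 0.849 to 0.941 (ended without mouse 6 or 8), Retsat with Rbp4 0.183 to 0.868 and Rbp4 with PPAR alpha targets 0.307 to 0.858 (both passed without mouse 3), Rbp4 with interferon response -0.789 to -0.071 and with acute phase proteins -0.711 to -0.037, and stellate cell genes -0.924 to -0.481 with Retsat, -0.710 to 0.310 with Rbp4 (positive without mouse 6) and -0.868 to -0.385 with Ttr (passed without mouse 8). No paired analysis was possible because there is 1 group. With 8 arrays the precision is limited by their number.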

Other observations

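Hepcidin (Hamp), the hormone that limits iron release into blood, stood among the acute phase genes by list and apart from most of them by pattern. It read 21191, 22021, 16769, 24152, 22793, 10696, 20056 and 13312 in mice 1 to 8, a mean of 18874 ± 4813 (SD, n = 8). Mice 6 and 8 were lowest and mouse 3 next, as for Retsat, and r between the genes was 0.958 over the 8 mice (0.964 with quantile normalization), where Lcn2, a siderophore-binding acute phase protein, had -0.951. Of that list Mt1 (0.554), Mt2 (0.426) and Fga (0.077) were positive with Retsat as well. Hamp was singled out after its values were seen, and no test was made of it.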
